A study of Nicotiana attenuata with 6 samples.

Results

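The array for Nicotiana attenuata, the coyote tobacco, carries 59157 probes, of which 364 have a readable protein name, the entry name of a matching protein in a related plant such as PDR1_TOBAC. The 103 probes described here are those of the readable names whose signal was well above background on all 6 arrays. Before that, 128 probes had been left out by particular name strings. The strings were those of photosynthesis, other plastid-genome, ATP synthase, respiratory-chain, ribosomal, HSP70 and lignin-path proteins. The strings did not take every such protein, and BIP5_TOBAC of the HSP70 class and PLAS1_TOBAC, a plastocyanin of photosynthesis, remained. Of the 236 probes left after that step, 103 met the detection rule, 16 were detected on 1 to 5 arrays and 117 on none. The probes were chosen by measured values, namely detection on every array, and ordered by level, so both are given as a description and are not tested. The difference between the plant lines had no part in the choice.

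RNA came from flower peduncles, the stalks that carry and bend the flower. The control plants carried an empty vector (EV, 3 arrays), and the other 3 arrays held irZTL, a knockdown line (irZTL-314 in the design text) in which ZEITLUPE (ZTL) is silenced by RNA interference. All plants were kept in a glasshouse with days of 16 h and nights of 8 h. Peduncles were cut at lights-on (ZT0) of the first day on which the flowers moved. Each array holds 1 pool of peduncles, and no label says whether the pools of a line came from separate plants, so p-values reflect how these pools varied, which may be technical in part.

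ZTL is an F-box protein that senses blue light and marks clock proteins for breakdown. The peduncle is an elongating stem-like organ whose bending moves the flower, and the study asked which transcripts differ in it when ZTL is silenced. The 103 probes stand for the general machinery of a living plant cell: enzymes of carbon, nitrogen and lipid metabolism, ion pumps, protein synthesis and breakdown, signalling and defence proteins. Of the 364 readable names, 0 were those of ZTL or its adagio relatives, and the silenced gene itself was not analysed here.

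The names went partly against the idea of a purely nuclear set. M1130_ARATH, YMF19_RAPSA and the 2 probes of NDUS2_NICSY match products of plant mitochondrial genomes (NDUS2 is the nad7 subunit of respiratory complex I), and POLX_TOBAC matches the polyprotein of a tobacco retrotransposon. Those 5 probes are kept and described as a group of their own. The names are those of proteins from 19 plant species and say which protein a transcript resembles, not which N. attenuata gene it is. Names from Nicotiana species were on all 6 arrays for 52 of 74 probes (70.3%) and those from other Solanaceae for 29 of 47 (61.7%). Names from Arabidopsis were so for 12 of 72 (16.7%) and those from all other species for 10 of 43 (23.3%).

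Between 29222 and 30173 probes per array were well above background, and the 75th percentile of the processed signal ran from 239 to 327. No spot was saturated. The array weights that limma estimated ran from 0.522 for irZTL replicate 3 to 1.895 for irZTL replicate 1. By the scan identifiers, slide 1 held irZTL replicates 1 and 2, and slide 2 held the third irZTL array beside the 3 EV arrays. Of the marker lists for other tissues, pollen and anther had 2 probes, 1 of them on all arrays, green tissue had 4 of 4 and lignin-forming tissue 3 of 3 on all arrays. The single petal probe was on none, and no probe carried a name of the root nicotine list.

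A level below is log2 of the processed signal relative to the array's 75th percentile, so 0 is the signal that 25% of all probes exceed. The named probes were bright, with a median level of 1.92 against 0.31 for all probes detected on 6 arrays, and 79 of them had a mean level above 0. The brightness of a probe depends on its sequence as well as on its transcript, so the order of probes is an order of signals and not of transcript amounts. The brightest was UBI1P_NICSY, the polyubiquitin from which free ubiquitin is cut, with levels of 8.20, 7.98 and 8.27 in irZTL and 8.23, 8.21 and 8.40 in EV. ADT2_SOLTU, the carrier that exchanges ADP and ATP across the mitochondrial inner membrane, followed at a mean of 7.55. The histones H4_ARATH and H33_CAPAN, around which DNA is wound, had mean levels of 7.45 and 6.67. The next were EFTUB_NICSY (6.49), the chloroplast translation factor EF-Tu, SAHH_NICSY (6.28), which clears S-adenosylhomocysteine after methyl transfer, and VATL_TOBAC (6.16), the membrane ring subunit of the vacuolar proton pump. SNAK1_SOLTU (5.82), a snakin antimicrobial peptide, FTSH_TOBAC (5.51), a chloroplast membrane protease, and PGKY_TOBAC (5.47), the cytosolic phosphoglycerate kinase, completed the 10 brightest probes.

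**Figure D1:**
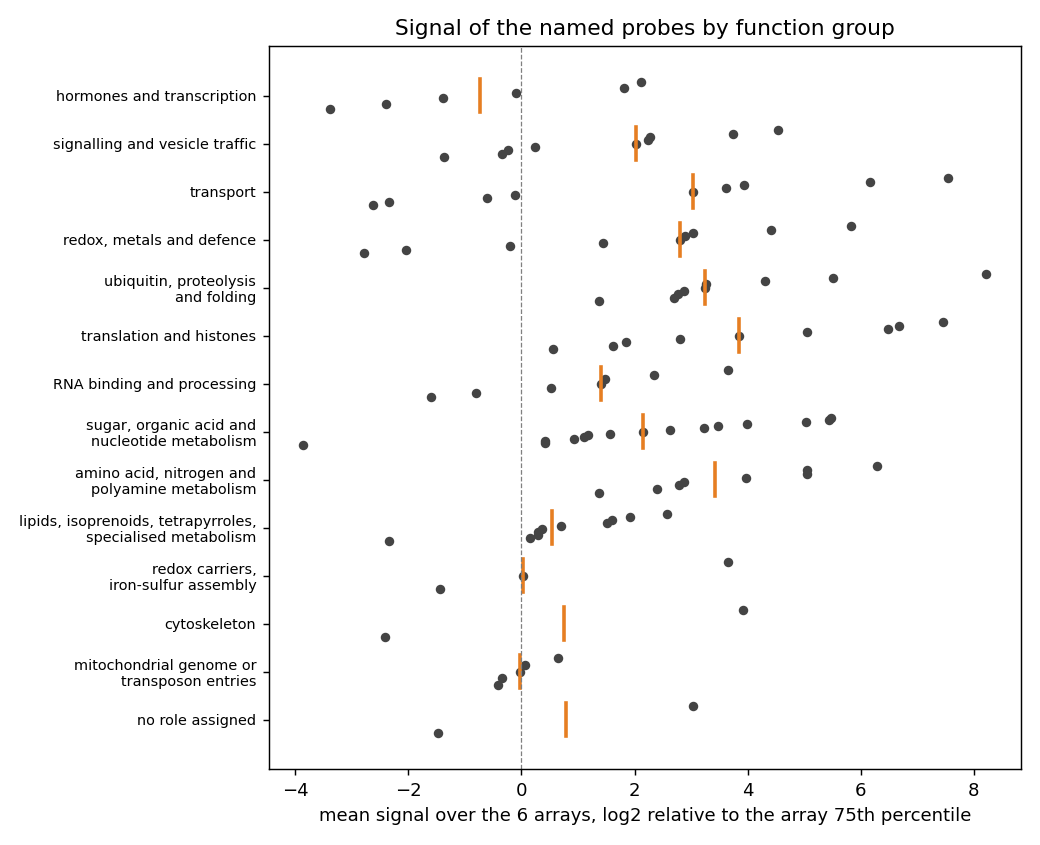
Mean signal over the 6 arrays (log2 relative to each array's 75th percentile, horizontal axis) of the 103 named probes in 14 function groups; each point is 1 probe and the orange bar is the group's median. Translation factors and histones have the highest median, 3.84, and the dimmest probe is ACEA_SOLLC at -3.86.

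At the dim end, ACEA_SOLLC, the isocitrate lyase of the glyoxylate cycle, had a mean level of -3.86, and CRF2_ARATH, a cytokinin response factor, of -3.39. R1A4_SOLDE, a putative late blight resistance protein, was at -2.78 and PDR1_NICPL, a drug-resistance type ABC transporter, at -2.62. Just outside the rule, with 5 of 6 arrays above background, lay GLO2_ORYSI, H3L4_ARATH, GLRX_SOLLC and LAT52_SOLLC with mean levels of -3.55, -3.53, -3.16 and -2.55. The edge of the set is therefore set by single arrays as well as by level.

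Few of the 103 probes differed between irZTL and EV. An adjusted p under 0.05 in limma was reached by 4 of them, PDR1_TOBAC and 1 catalase probe higher and SBP2_ANTMA and POLC2_TOBAC lower in irZTL. Over all 28683 measured probes, those detected on every array of irZTL, of EV or of both, the share called was 4.04% (2.11% higher and 1.94% lower). Over the probes detected on 6 arrays it was 3.7% (1.88% higher and 1.82% lower). The named probes were thus called about as often as the background. None of the 103 also passed a 2-fold change, while 1.75% of measured probes and 1.41% of those on 6 arrays passed both limits in limma. At an unadjusted p under 0.05 in limma, 1 of the 103 exceeded 2-fold. The methods' t-test gave 0 past an adjusted p under 0.05 and 2-fold. No background share was computed for either of these counts, so neither is called few or many. At an unadjusted p under 0.05 there were 18 probes, 12 higher and 6 lower, against a background of 20.1% (19.2% on 6 arrays). The levels of the 2 lines did not overlap for 26 probes, 18 higher and 8 lower in irZTL. Of measured probes 25.2% (24.6% on 6 arrays) did not overlap. Background shares by direction were not computed at these limits, so neither split is read as a trait of the named probes. The median difference, irZTL minus EV on the log2 scale, was -0.0078 over the named probes and -0.0059 over all measured probes, and 77 of the 103 probes differed by less than 0.25.

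The count of 4 rests on few arrays. It was 3 without irZTL replicate 3 (background 4.57%), when each line lay on its own slide. It was 2 without irZTL replicate 1 (1.36%) or EV replicate 1 (2.39%). It was 1 without EV replicate 2 (1.14%), EV replicate 3 (1.48%) or irZTL replicate 2 (1.16%). With slide as a fixed block in limma, where irZTL replicate 3 is set against the EV arrays, it was 0 (background 0.743%). With the replicate number as a block it was 4, of which 3 higher, while the background rose to 7.82%. With the trend and robust options it was 5 (background 5.5%), with array weights 8 (8.46%), with slide as a random block 2 (3.17%), with all probes kept 1 (0.485%) and in the methods' t-test 1 (0.523%). Quantile normalization gave 3 (4.09%), and normexp (4.45%) and the deposited values (4.04%) gave 4 each.

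**Figure D2:**
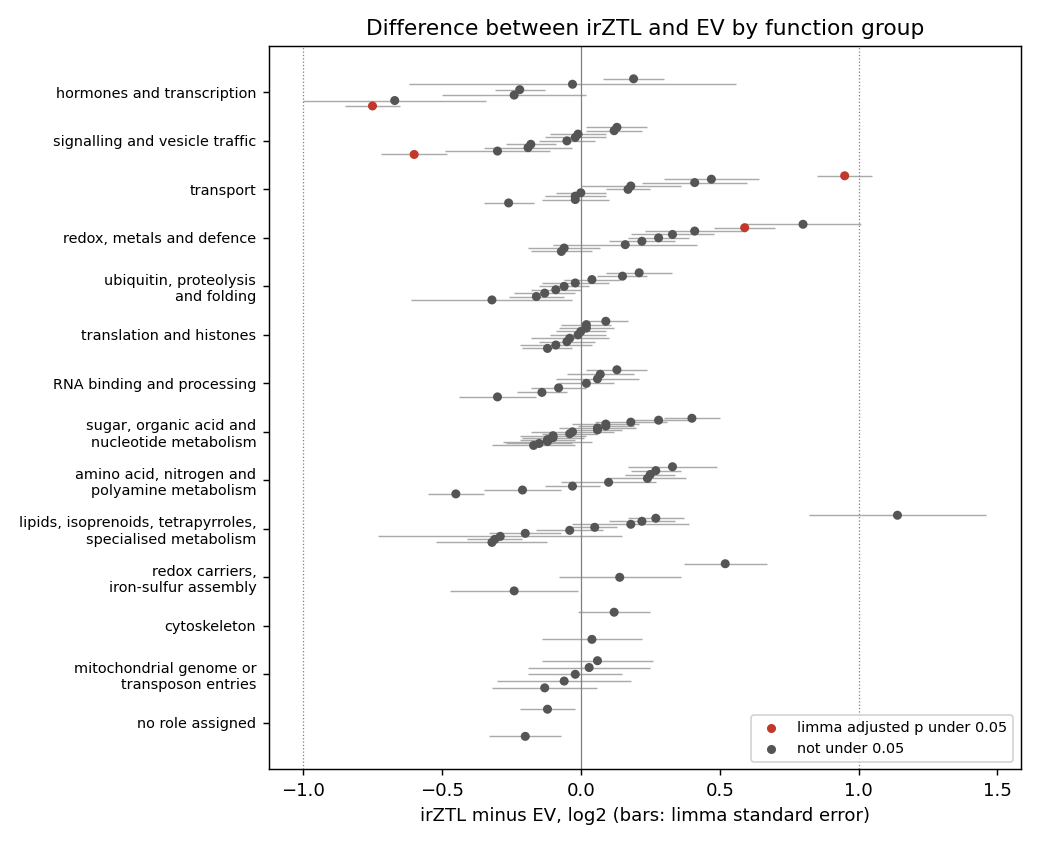
Difference between irZTL and EV (log2, horizontal axis) of each of the 103 named probes by function group, with the limma standard error as a bar; red points have an adjusted p under 0.05 and dotted lines mark a 2-fold change. The differences run from -0.75 to 1.14, and the 9 translation and histone probes lie between -0.12 and 0.09.

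The transporters held the probe with the lowest p. PDR1_TOBAC belongs to a class of plasma membrane ABC transporters known in Nicotiana for exporting antimicrobial terpenes. Its levels were -0.17, -0.13 and -0.08 in irZTL and -0.94, -1.13 and -1.16 in EV. All irZTL arrays lay above all EV arrays, with a wide gap. It rose by 0.95 ± 0.10 log2 (1.93-fold; SE, n = 3 each; limma adjusted p = 0.00693), and its exact permutation p of 0.1 is the smallest that 3 against 3 can give. With slide as a fixed block the difference was 0.99 (adjusted p = 0.0563). Another probe of the name, NA13849_22141, stayed near background on every array (0 of 6 detected). PDR1_NICPL, a close relative, had a difference of 0.41 ± 0.19 (adjusted p = 0.301), with overlapping levels, and of 0.12 with the slide block.

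The other transport probes did not pass the test. STA_RICCO, a sugar carrier, had levels of 0.22, 0.22 and -0.11 in irZTL and -0.14, -0.26 and -0.68 in EV. Its lines were separated by a narrow gap, with a difference of 0.47 ± 0.17 (adjusted p = 0.196, and 0.0472 with the replicate block). With the slide block it was 0.25 (adjusted p = 0.73), and without EV replicate 3 it was 0.31. VATG2_TOBAC, a stalk subunit of the vacuolar proton pump, differed by -0.26 ± 0.09 (adjusted p = 0.197) with no overlap, whereas VATL_TOBAC of the same pump differed by -0.02 ± 0.12. PMA1_NICPL, the plasma membrane proton pump, which acidifies the cell wall, differed by 0.18 ± 0.18. ADT2_SOLTU differed by 0.17 ± 0.08 (adjusted p = 0.335), with irZTL levels of 7.60 to 7.68 above EV levels of 7.43 to 7.51. VDAC2_SOLTU, the mitochondrial outer membrane pore, and OEP61_ARATH, a chloroplast envelope protein, differed by -0.02 and 0.00. In all, 1 of 9 transport probes passed the test in limma (background 4.04%), and 3 had an unadjusted p under 0.05 (background 20.1%).

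SBP2_ANTMA carried the clearest lower signal. It is a squamosa promoter-binding protein, of a plant-specific transcription factor family that acts in the timing of flowering and growth phases. Its levels were 1.57, 1.38 and 1.37 in irZTL and 2.07, 2.22 and 2.26 in EV, so that the lowest EV array lay well above the highest irZTL array. It fell by 0.75 ± 0.10 log2 (1.68-fold lower, limma adjusted p = 0.017). The adjusted p was 0.0832 without irZTL replicate 2, 0.0756 without EV replicate 2, 0.0666 without EV replicate 3 and 0.0933 with the slide block, where the difference was -0.82.

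SPL12_ARATH, the other probe of the squamosa promoter-binding family, had levels of -0.21, -0.27 and -0.10 in irZTL and 0.00, 0.04 and 0.02 in EV. The lines did not overlap here either, but the difference of -0.22 ± 0.09 had an adjusted p of 0.244. Over the settings the difference ran from -0.82 to -0.71 for SBP2_ANTMA and from -0.26 to -0.12 for SPL12_ARATH. With no overlap in either probe, leaving out arrays could not change the sign. DOF53_ARATH, a Dof zinc finger transcription factor, differed by -0.24 ± 0.26, and CRF2_ARATH by -0.67 ± 0.33 (adjusted p = 0.323). The value of CRF2_ARATH was -0.32 with normexp, -1.04 with the slide block and -1.02 to -0.45 when 1 array was left out. OPR3_SOLLC, the reductase that makes the jasmonate precursor, differed by 0.19 ± 0.11 (adjusted p = 0.412), and its irZTL levels of 2.08 to 2.42 lay above the EV levels of 1.99 to 2.06. Of the 6 hormone and transcription probes, 1 passed the test in limma and 5 did not (background 4.04%). An unadjusted p under 0.05 was reached by 2 of them (background 20.1%).

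ETR1_SOLLC, an ethylene receptor, showed the widest replicate spread of all named probes. Its levels were -1.25, -1.43 and -1.54 in irZTL and -2.26, 0.11 and -1.98 in EV. EV replicate 2 stood far above every other array, and the other 2 EV arrays lay below all irZTL arrays. The difference was -0.03 ± 0.59, but 0.71 without EV replicate 2 and -0.48 at the other end of the single-array omissions, so no direction can be given.

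POLC2_TOBAC, a polcalcin, is a small calcium-binding protein known from pollen. Its levels were -1.65, -1.80 and -1.58 in irZTL and -1.15, -0.89 and -1.19 in EV, with no overlap. It fell by 0.60 ± 0.12 log2 (limma adjusted p = 0.046, and 0.066 with the replicate block). Whichever array was left out, the adjusted p was above 0.05, from 0.0579 to 0.163, and with the slide block it was 0.28 for a difference of -0.50. The other pollen marker, LAT52_SOLLC, had levels of -0.74, -5.42 and -2.91 in irZTL and -1.51, -1.20 and -3.49 in EV. Both probes were lowest in irZTL replicate 2, and the EV arrays had the same order in both, while irZTL replicate 1 was the highest array for LAT52_SOLLC and not for POLC2_TOBAC. The summed linear signal of both markers relative to the 75th percentile was 0.311 to 0.919 in irZTL and 0.529 to 0.977 in EV, and the part of pollen in the result was not tested. In bulk tissue, fewer cells of a type and less RNA per cell cannot be told apart.

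Of the 9 signalling and vesicle traffic probes, POLC2_TOBAC alone passed the test in limma (background 4.04%). It was also the only 1 with an unadjusted p under 0.05 (background 20.1%). P2C52_ORYSJ, a protein phosphatase of the 2C class, which in plants reverses many kinase signals, had irZTL levels of 2.09 to 2.21 below EV levels of 2.26 to 2.38 and a difference of -0.18 ± 0.09 (adjusted p = 0.326). PP2A5_TOBAC and PP2A_TOBAC, catalytic subunits of protein phosphatase 2A, differed by -0.30 ± 0.19 and -0.05 ± 0.10. MSK1_TOBAC, a shaggy-like kinase, and CALM3_PETHY, of the calmodulin family of calcium sensors, differed by -0.01 ± 0.10 and -0.02 ± 0.11. Among traffic proteins, YPT3_NICPL, a small GTPase, and VPS41_SOLLC, which acts in delivery to the vacuole, differed by 0.13 ± 0.11 and 0.12 ± 0.10, and SR542_SOLLC, a subunit of the signal recognition particle, by -0.19 ± 0.16.

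**Figure D3:**
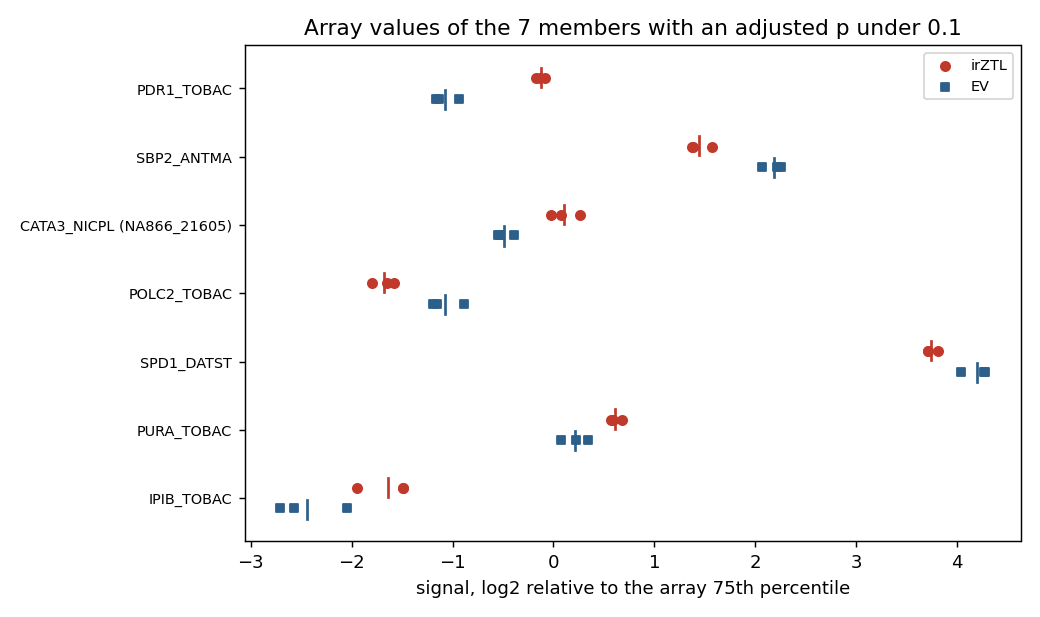
Array values (log2 relative to the array's 75th percentile) of the 7 named probes with a limma adjusted p under 0.1; red circles are the 3 irZTL arrays, blue squares the 3 EV arrays, and short lines the means. In each probe the 3 irZTL values lie on 1 side of the EV values, by the widest margin in PDR1_TOBAC and the narrowest in IPIB_TOBAC.

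Catalase was represented by 2 probes of CATA3_NICPL. The enzyme breaks down hydrogen peroxide. Probe NA866_21605 had levels of 0.26, -0.02 and 0.07 in irZTL and -0.55, -0.39 and -0.53 in EV, without overlap, and rose by 0.59 ± 0.11 log2 (1.51-fold, limma adjusted p = 0.0369, and 0.0522 with the replicate block). Its adjusted p was above 0.05 whichever array was left out, from 0.0602 to 0.124. Probe NA59991_21606 had levels of 2.85, 2.84 and 3.06 in irZTL and 2.51, 2.83 and 2.76 in EV, again all higher in irZTL, though the nearest arrays of the lines almost met. Its difference of 0.22 ± 0.12 did not pass (adjusted p = 0.384). Over the settings the differences ran from 0.47 to 0.65 and from 0.13 to 0.36. Since the lines overlapped in neither probe, leaving out arrays could not change the sign.

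IPIB_TOBAC, a proteinase inhibitor that tobacco leaves make on wounding, had levels of -1.49, -1.49 and -1.95 in irZTL and -2.71, -2.05 and -2.57 in EV. The difference of 0.80 ± 0.21 had an adjusted p of 0.0964, and fell to 0.37 with normexp on the median signal and to 0.49 with the slide block. SNAK1_SOLTU had levels of 5.82, 5.89 and 6.24 in irZTL and 5.47, 5.73 and 5.78 in EV, without overlap, and differed by 0.33 ± 0.15 (adjusted p = 0.285). RSI1_SOLLC, of the same gibberellin-regulated peptide family, differed by 0.16 ± 0.26 with overlapping levels. MT2_NICPL, a metal-binding metallothionein, differed by 0.28 ± 0.11 (adjusted p = 0.248) and R1A4_SOLDE by 0.41 ± 0.18 (adjusted p = 0.274). The value of R1A4_SOLDE was 0.17 with normexp, 0.15 with the slide block and 0.25 without irZTL replicate 1. TRXH2_TOBAC, a thioredoxin that reduces disulfide bonds, and CUTA1_ORYSJ, a CutA-like copper-binding protein, differed by -0.06 ± 0.13 and -0.07 ± 0.11. In this group of 9 probes, 1 passed the test in limma (background 4.04%), and 3 had an unadjusted p under 0.05 (background 20.1%). The lines did not overlap for 5, all higher in irZTL and both CATA3_NICPL probes among them. The background share, 25.2%, is for either direction, and the share for the higher direction was not computed. The median difference of the group was 0.28, and the group as a whole was not tested.

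Amino acid, nitrogen and polyamine metabolism had 8 probes, of which 0 passed the limma test. An unadjusted p under 0.05 was reached by 3 (background 20.1%). SPD1_DATST, a spermidine synthase, had levels of 3.71, 3.71 and 3.81 in irZTL and 4.04, 4.27 and 4.28 in EV. All irZTL arrays were lower, with a difference of -0.45 ± 0.10 (1.36-fold lower, limma adjusted p = 0.0697). The adjusted p was 0.0278 with the trend and robust options, 0.361 with the slide block, 0.241 with no filter, 0.134 in the methods' t-test and 0.0608 to 0.221 when 1 array was left out. SPDE_SOLLC, another spermidine synthase entry, differed by -0.21 ± 0.14 with overlap. DHEB_NICPL, a glutamate dehydrogenase subunit, had levels of 3.08, 3.02 and 2.94 in irZTL and 2.83, 2.68 and 2.71 in EV, a difference of 0.27 ± 0.09 (adjusted p = 0.162). AROF_TOBAC, the entry enzyme of the shikimate pathway to aromatic amino acids, had levels of 2.47 to 2.59 in irZTL and 2.20 to 2.38 in EV, a difference of 0.25 ± 0.09 (adjusted p = 0.205). The lines did not overlap in either of these. GLNA_NICPL, a glutamine synthetase, which assimilates ammonium, differed by 0.33 ± 0.16 (adjusted p = 0.309), and ILVB1_TOBAC, the acetolactate synthase of branched-chain amino acids, by 0.24 ± 0.14, both with overlap. SAHH_NICSY and GLYM_SOLTU, the mitochondrial serine hydroxymethyltransferase, differed by 0.10 ± 0.17 and -0.03 ± 0.10.

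Carbon and nucleotide metabolism had 15 probes, and 0 passed the limma test (2 at an unadjusted p under 0.05, background 20.1%). PURA_TOBAC, the adenylosuccinate synthetase of AMP synthesis, had levels of 0.59, 0.68 and 0.57 in irZTL and 0.07, 0.34 and 0.22 in EV. The gap between the lines exceeded the range within irZTL but not that within EV. The difference was 0.40 ± 0.10 (1.32-fold, adjusted p = 0.09). IPYR_SOLTU, the soluble pyrophosphatase that drives biosynthetic reactions forward, had levels of 3.52 to 3.78 in irZTL and 3.29 to 3.42 in EV, and differed by 0.28 ± 0.11 (adjusted p = 0.212). The glycolytic probes differed less between the lines. ENO_SOLLC, the enolase, differed by -0.12 ± 0.16, PGMC_SOLTU, the cytosolic phosphoglucomutase, by -0.03 ± 0.15, and the 2 probes of PGKY_TOBAC by -0.10 ± 0.11 and -0.17 ± 0.15. Of the sucrose and starch enzymes, UGPA_SOLTU, which makes UDP-glucose, differed by 0.18 ± 0.13, SPP2_TOBAC, the last step of sucrose synthesis, by -0.15 ± 0.12, and GWD1_SOLTU, which phosphorylates starch for its breakdown, by 0.06 ± 0.09. BGAL_SOLLC, a cell wall beta-galactosidase, differed by -0.10 ± 0.12 and TKTC_SOLTU, a chloroplast transketolase, by 0.06 ± 0.14. The organic acid enzymes MAON_SOLTU, a mitochondrial malic enzyme, IDHC_TOBAC, the cytosolic isocitrate dehydrogenase, and ACEA_SOLLC differed by -0.12, 0.09 and 0.09, and NDK_SOLLC, a nucleoside diphosphate kinase, by -0.04.

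Lipid, isoprenoid, tetrapyrrole and specialised metabolism held the largest difference among the named probes, which did not pass the test. C76A1_SOLME, a cytochrome P450, had levels of -1.69, -2.26 and -1.37 in irZTL and -3.40, -3.01 and -2.34 in EV. The lines did not overlap, but irZTL replicate 2 and EV replicate 3 lay close together. The difference was 1.14 ± 0.32 (2.21-fold, adjusted p = 0.115, and 0.0485 with the replicate block), and it was 0.52 with normexp on the median signal and 1.55 with the slide block. MGDG_TOBAC, which makes the main galactolipid of chloroplast membranes, had levels of 0.11 to 0.20 in irZTL and 0.34 to 0.56 in EV and differed by -0.31 ± 0.10 (adjusted p = 0.143). PLDA1_TOBAC, a phospholipase D that releases phosphatidic acid, had levels of 1.71 to 1.76 in irZTL and 1.33 to 1.62 in EV and differed by 0.27 ± 0.10 (adjusted p = 0.217). CDS1_SOLTU, an enzyme of phospholipid synthesis, and SC5D_TOBAC, a sterol desaturase, differed by -0.20 ± 0.13 and -0.32 ± 0.20. The tetrapyrrole enzymes GSA_TOBAC and PPOM_TOBAC, which act on the way to chlorophyll and heme, differed by -0.04 ± 0.12 and 0.05 ± 0.08. IPIPR_MENPI, a reductase of mint monoterpenes, differed by 0.22 ± 0.12, and DIOX2_PAPSO, a poppy dioxygenase, by 0.18 ± 0.21. None of the 10 probes passed in limma, and 3 of them had an unadjusted p under 0.05 (background 20.1%).

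SCS_SALOF, a sage terpene synthase entry, had levels of 0.15, 0.97 and -0.65 in irZTL and 0.07, 0.19 and 1.07 in EV. Arrays of both lines covered nearly the whole range, and the difference of -0.29 ± 0.44 was 0.11 without irZTL replicate 3 and -1.09 with the slide block. Its spread within a line was second only to that of ETR1_SOLLC.

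Protein breakdown and folding had 9 probes, and 0 passed in limma (also 0 at an unadjusted p under 0.05, background 20.1%). The 2 probes of UBI1P_NICSY differed by -0.13 ± 0.11 and -0.02 ± 0.12, and RUB2_ARATH, a ubiquitin-like modifier that activates cullin ligases, by -0.06 ± 0.09. The proteasome is the complex to which F-box proteins send their targets. Its regulatory ATPases PRS6A_SOLLC and PRS6B_SOLTU differed by -0.16 ± 0.10 and -0.09 ± 0.09, and PSMD3_TOBAC, a subunit of the same cap, by 0.15 ± 0.09. PRS6A_SOLLC was lower and PSMD3_TOBAC higher in all irZTL arrays, with adjusted p of 0.444 and 0.376. XCP1_ARATH, a protease of developing xylem vessels, had levels of 2.96, 2.59 and 2.88 in irZTL and 2.62, 2.66 and 2.50 in EV and differed by 0.21 ± 0.12. FTSH_TOBAC differed by 0.04 ± 0.10. BIP5_TOBAC, a chaperone of the endoplasmic reticulum, had levels of 1.13, 1.04 and 1.46 in irZTL and 1.19, 1.20 and 2.19 in EV. EV replicate 3 stood alone, and the difference was -0.32 ± 0.29, or 0.01 without that array.

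Translation factors and histones differed little between the lines, from -0.12 to 0.09. None of the 9 probes passed, with 0 in limma also at an unadjusted p under 0.05 (background 20.1%). EFTUB_NICSY, with levels of 6.37, 6.43 and 6.48 in irZTL and 6.44, 6.59 and 6.61 in EV, had the largest difference, -0.12 ± 0.09. The initiation factors IF4A3_NICPL, IF411_TOBAC and IF5A2_NICPL differed by 0.00 ± 0.09, -0.04 ± 0.14 and 0.02 ± 0.10. DHYS_TOBAC, which modifies factor 5A, differed by -0.05 ± 0.10. The 2 probes of EIF3A_TOBAC, the scaffold of initiation factor 3, differed by 0.09 ± 0.08 and -0.01 ± 0.10, and the first was higher in all irZTL arrays with an adjusted p of 0.598. H33_CAPAN and H4_ARATH differed by 0.02 ± 0.09 and -0.09 ± 0.13.

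RNA-binding proteins gave 0 of 7 probes past the test in limma, also at an unadjusted p under 0.05 (background 20.1%), and overlapping levels in each. PPR85_ARATH, a pentatricopeptide protein of a family that processes organelle RNA, had levels of -1.10, -0.91 and -0.83 in irZTL and -0.89, -0.62 and -0.43 in EV and the largest difference, -0.30 ± 0.14 (adjusted p = 0.309). RF1_ORYSI, a fertility restorer of the same kind, differed by 0.13 ± 0.11. U2A2A_NICPL and U2A2B_NICPL, large subunits of the splicing factor U2AF, differed by -0.14 ± 0.09 and 0.02 ± 0.10. DB10_NICSY, a DEAD-box RNA helicase, and RBP47_NICPL, which binds poly(A) RNA, differed by 0.06 ± 0.15 and 0.07 ± 0.12, and METL1_ARATH, a methyltransferase-like protein, by -0.08 ± 0.10.

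Among redox carriers, PLAS1_TOBAC, the plastocyanin that carries electrons to photosystem I, had levels of 3.20, 3.64 and 3.73 in irZTL and 3.36, 4.15 and 3.80 in EV. The lines overlapped, with a difference of -0.24 ± 0.23 (adjusted p = 0.62). FENR2_TOBAC, a ferredoxin-NADP reductase, differed by 0.14 ± 0.22. ISU2_ARATH, a scaffold on which mitochondrial iron-sulfur clusters are built, had levels of 0.46, 0.38 and 0.01 in irZTL and -0.33, -0.08 and -0.28 in EV, all higher in irZTL. Its difference of 0.52 ± 0.15 did not pass (limma adjusted p = 0.117) and was 0.24 with the slide block. Without irZTL replicate 3 it had an adjusted p of 0.0441, but each line then lay on its own slide, so slide and line cannot be told apart. The cytoskeletal probes TBB1_ORYSJ, a beta-tubulin, and ACT1_TOBAC, an actin, differed by 0.12 ± 0.13 and 0.04 ± 0.18. TBB1_ORYSJ had levels of 3.98, 4.06 and 3.91 in irZTL and 3.75, 4.12 and 3.71 in EV, with overlap. ST14_SOLTU and Y3122_ARATH, to which no role is assigned here, differed by -0.12 ± 0.10 and -0.20 ± 0.13. Of these 7 probes, 0 passed in limma and ISU2_ARATH alone had an unadjusted p under 0.05 (background 20.1%).

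The 5 mitochondrial genome and transposon entries shared a pattern across arrays that was not one of plant line. YMF19_RAPSA, which matches a subunit of the mitochondrial ATP synthase, had levels of 0.49, 0.51 and 1.03 in irZTL and 0.86, 0.32 and 0.67 in EV. Those of the NDUS2_NICSY probe NA116825_22014 were -0.09, -0.01 and 0.26 in irZTL and 0.33, -0.23 and 0.12 in EV. The retrotransposon entry POLX_TOBAC had -0.66, -0.61 and -0.19 in irZTL and -0.22, -0.69 and -0.18 in EV. All 5 probes were lowest in EV replicate 2, and irZTL replicate 3 was the highest irZTL array in the 3 given here. Over all 103 named probes, EV replicate 2 was the lowest array for 9 and the highest for 38, and EV replicate 1 the lowest for 37. The share of all measured probes lowest in EV replicate 2 was not computed, and the 5 probes hold only 4 entry names. The differences of the 5 probes ran from -0.13 to 0.06, with 0 at an unadjusted p under 0.05 in limma (background 20.1%). The second NDUS2_NICSY probe, NA296686_22017, and M1130_ARATH differed by 0.03 ± 0.22 and -0.06 ± 0.24.

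**Figure D4:**
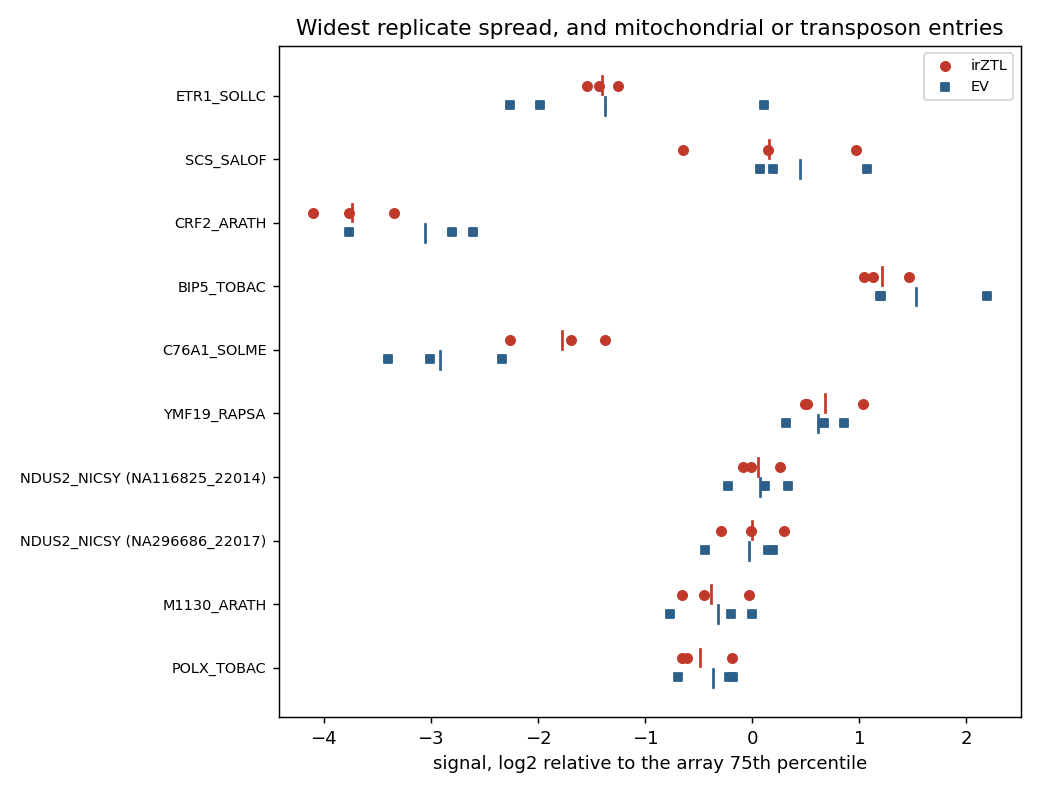
Array values (log2 relative to the array's 75th percentile) of the 5 named probes with the widest spread within a line and of the 5 mitochondrial genome or transposon entries; red circles are irZTL arrays, blue squares EV arrays, and short lines the means. ETR1_SOLLC has 1 EV array at 0.11 far from the others, and in each mitochondrial or transposon entry the lowest point is an EV array, replicate 2.

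The replicate spread of the named probes was small. Their median SD was 0.10 in irZTL and 0.15 in EV, against 0.14 and 0.16 over all measured probes. That background is dimmer (median level 0.119 against 1.92) and includes probes not detected on every array. The 2 sets are therefore not alike, and the smaller SD is not read as a trait of the named proteins. Their median absolute difference was 0.13, against 0.149 over the probes detected on 6 arrays. CRF2_ARATH was among the 5 with the widest spread, with levels of -3.76, -3.34 and -4.10 in irZTL and -2.80, -2.61 and -3.76 in EV. Its lines overlapped through EV replicate 3 alone. Only 8 of the 103 probes differed by more than 0.5 log2.

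Slide 2 held both lines, with irZTL replicate 3 and the 3 EV arrays. All 4 of these arrays also enter the difference over all arrays, so the values on slide 2 are not independent of it. For 51 of the 103 probes irZTL replicate 3 lay nearer to the EV mean than did the mean of irZTL replicates 1 and 2. The share over all measured probes was not computed, and 1 array is set against a mean here, so no slide effect is read from the count. For the 7 probes with an adjusted p under 0.1 over all arrays, the differences on slide 2 were 0.99 for PDR1_TOBAC, -0.82 for SBP2_ANTMA, 0.56 for CATA3_NICPL probe NA866_21605, -0.50 for POLC2_TOBAC, -0.38 for SPD1_DATST, 0.36 for PURA_TOBAC and 0.49 for IPIB_TOBAC. None had an adjusted p under 0.05 in limma on slide 2 alone, where the background called at that adjusted limit was 0.248%. The background share at an unadjusted p was not computed for slide 2 alone, so no count is read at that limit. Slide and plant line cannot be told apart for irZTL replicates 1 and 2.

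**Figure D5:**
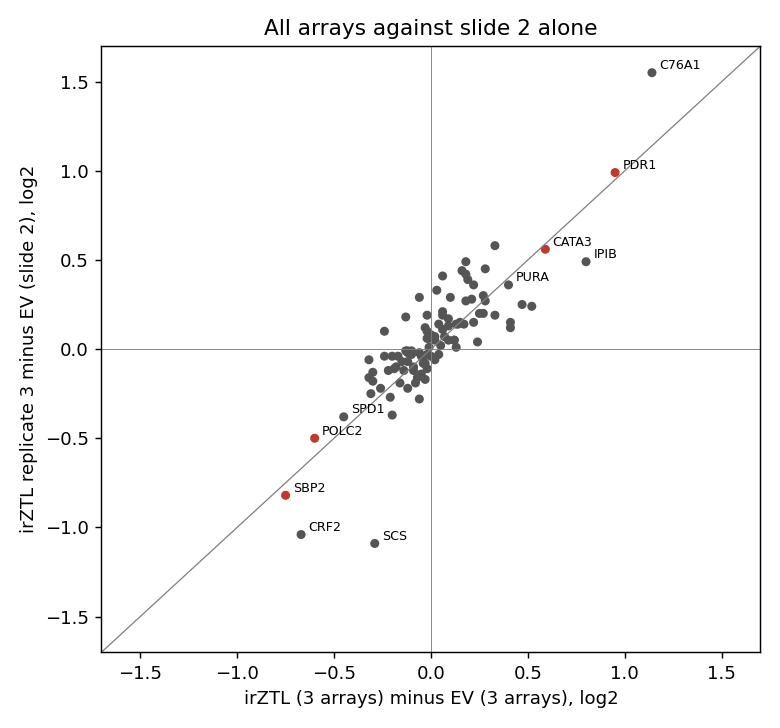
Difference between irZTL and EV over all arrays (log2, horizontal axis) against the difference of irZTL replicate 3 from the EV arrays of slide 2 (log2, vertical axis) for the 103 named probes, which share the EV arrays and irZTL replicate 3; red points have a limma adjusted p under 0.05 over all arrays and the diagonal marks equal values. PDR1_TOBAC (0.95 and 0.99) and SBP2_ANTMA (-0.75 and -0.82) lie on the diagonal, and SCS_SALOF (-0.29 and -1.09) lies far from it.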

How the data were processed

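Single-colour Agilent arrays of Cy3-labelled peduncle RNA were used, 3 per line. The authors extracted spot intensity with Agilent Feature Extraction (version 10.7.3.1 per the file headers, 9.5 per the submitters' processing notes). The deposited processed intensity is linear, background-subtracted and not scaled between arrays, per the file headers. A table of log2 values that the authors deposited was scaled to the 75th percentile, as the design text says, and 99.71% to 99.75% of its probes lay within 0.02 of the values computed here.

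Control and outlier spots were left out and spots of a probe averaged. A probe counted as detected where the mean of its flag over spots was at least 0.5. Intensities on the log2 scale, less the array's own 75th percentile, were fitted with limma 3.58.1 (R 4.3.3, lmFit and eBayes, two-sided, Benjamini-Hochberg over 28683 measured probes, tested on simulated data). Of the 103 identifiers, 0 matched the RefSeq gene table, so no position or sequence is given. Array by array values go to probes with an adjusted p under 0.1, the 10 brightest by rank, the largest difference per function group, the 5 widest spreads, and others in their group. The members and lists were chosen with earlier results of these data known, and function groups were set from the names by known protein function.

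Deviations from the line means correlated between same-numbered replicates (0.386, 0.142 and 0.372), which was treated as possible pairing, from the data and not from the labels. Deviations within a line sum to 0, so these correlations are not independent of those between the other pairs, and the pairing stays uncertain. A fit with a replicate block was therefore run as an alternative. The main differences, SE and adjusted p come from the fit without it. The other alternatives were quantile normalization, the deposited values, normexp (offset 50), no filter, slide as a block, slide 2 alone, the methods' t-test, limma's trend and robust options, array weights, single-array omissions, and other member rules.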

Additional observations from a re-analysis of the deposited data

How the results depend on the processing

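In limma 4 named probes had an adjusted p under 0.05. The count was 1 with no filter on dim probes, 2 with slide as a random block and 0 with slide as a fixed block. It was 8 with array weights and 1 with the methods' t-test. Leaving out 1 array gave 1 to 3. Quantile normalization gave 3, 2 higher and 1 lower, since POLC2_TOBAC had an adjusted p of 0.0549. The count past a 2-fold change as well was 0, but 1 with the replicate block (C76A1_SOLME). It was 0 to 1 when 1 array was left out, where PDR1_TOBAC exceeded 2-fold without EV replicate 1. The background shares past both limits were not computed for these alternatives. With the replicate block CATA3_NICPL and POLC2_TOBAC were no longer called, STA_RICCO and C76A1_SOLME were, and no other call changed. The median difference moved by less than the SD of the array medians (0.077) in every setting, from -0.046 to 0.047. Over 1751 values of the 103 probes under 17 alternatives, 34 lost a call, 8 gained one and 0 called values changed sign. The called probes had no overlap between the lines, so leaving out arrays could not change their sign. Of the uncalled probes, 35 had 105 values of the opposite sign. The adjusted p was under 0.05 in 16 of 18 settings for PDR1_TOBAC, 11 for SBP2_ANTMA, 6 for CATA3_NICPL and 5 for POLC2_TOBAC. The settings share arrays and values, so they are not independent checks. With slide as a fixed block none of the 4 was called, PDR1_TOBAC included. Except by construction (fewer arrays, more probes adjusted over), the cause was not tested. Single-array omissions kept the same measured probes. Normexp used the median signal, since the files hold no mean spot signal. Besides those given in the results, the uncalled probes differing by over 0.25 whose value moved by over 1.5 times were SNAK1_SOLTU (0.20 to 0.58 over the settings), GLNA_NICPL (0.17 to 0.43), IPYR_SOLTU (0.20 to 0.45), SC5D_TOBAC (-0.52 to -0.15), PP2A5_TOBAC (-0.49 to -0.13) and PPR85_ARATH (-0.43 to -0.14). For dim probes the background correction mattered, as with normexp the difference of C76A1_SOLME was 0.52 and that of IPIB_TOBAC 0.37.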

Other observations

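Some named probes just outside the detection rule also gave values. GLRX_SOLLC, a glutaredoxin that reduces disulfide bonds, was well above background on all 3 irZTL arrays and on 2 of 3 EV arrays, with levels of -2.79, -2.72 and -2.79 in irZTL and -3.93, -3.27 and -3.45 in EV. It is given as levels only, since it counted as measured through the irZTL arrays alone. PGLR_TOBAC, a polygalacturonase that cuts pectin and is known from pollen, was above background on 4 arrays. Its levels were -1.71, -5.13 and -3.70 in irZTL and -2.29, -2.24 and -4.32 in EV. LAT52_SOLLC, the pollen protein given above, was likewise highest in irZTL replicate 1, EV replicate 1 and EV replicate 2 and lowest in irZTL replicate 2. PER40_ARATH, a peroxidase entry, was above background on 1 irZTL array and on no EV array, and E13G_TOBAC, a glucanase of the pathogenesis-related class, on EV replicate 2 alone (level -2.79, the other arrays from -6.30 to -6.08).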
